A study of Mus musculus with 8 samples.

Results

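The genes followed here are 5 primed epiblast factors, Fgf5, Pou3f1, Sox3, Otx2 and Zic2, measured in mouse embryonic stem cell cultures. They were taken as every probe set, a spot group of the Affymetrix array that reports 1 transcript, whose single gene symbol in the platform annotation is one of these names. All 5 genes were found, among 18194 named in all, through 8 of the array's 45101 probe sets. The genes were chosen because earlier results of these data showed them lower in coculture, so their coculture values are given as a description and without a test.

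The primed epiblast is the state that pluripotent cells enter around implantation, after the naive state that embryonic stem cells resemble in standard culture. The step out of the naive state depends on FGF signalling through the kinase ERK, and the genes described here are switched on along the way. Fgf5 is the classical marker of that state and encodes a secreted growth factor. Pou3f1, also called Oct6, Sox3, Otx2 and Zic2 encode transcription factors of the POU, SOX, homeobox and zinc finger families, and they are also used later by neural progenitors.

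The cells were of strain 129X1 x 129S1, and every sample was labelled as 1 part of a knockdown line to 4 parts of mock cells, on day 4. The titles of the cocultures do not say whether this was still the ratio when RNA was taken. A shTop1 coculture held cells with a short hairpin against Top1 and mock cells sharing a dish, and the shTop1 mix held RNA of the same kinds of cells kept in separate dishes and pooled afterwards. The shp53 coculture and the shp53 mix were made in the same way with a hairpin against p53. Each of the 4 groups had 2 arrays, 8 in all, labelled as biological replicates, and what they share is not stated, so the spread between them may be partly technical. Mock cells were therefore present in every sample, and the contrast of coculture with mix asks what changes when the cells live together. In RNA from whole cultures, fewer cells of a type and less RNA per cell cannot be told apart.

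Values are linear signals, quantile normalized here from the authors' scaled intensities, and differences are on the log2(signal + 16) scale, which understates the change of dim genes. The number of arrays limits the precision. Mean deposited signal was 812 to 896 per array. On the component of second largest variance (16.9%) shTop1 coculture replicate 1 lay apart at 32.6, against -15.5 to 3.63 on the other arrays. Top1, the DNA topoisomerase targeted by 1 hairpin, had signals of 5281 and 5283 in the shTop1 coculture and 5109.6 and 5316 in the shTop1 mix, against 5572 and 5886 in the shp53 coculture and 5456 and 5682 in the shp53 mix. Knockdown RNA was 20% of each mix, and the log2 difference of shTop1 minus shp53 over both conditions was -0.11 ± 0.07 (SE, limma adjusted p = 0.999). Over both conditions the 2 dimmer Top1 probe sets overlapped between the knockdowns, one at 183 to 283 with shTop1 against 131 to 258 with shp53, the other at 6.43 to 49.9 against 10.2 to 29.4. In the mixes alone the first was higher with shTop1, at 270 and 283 against 223 and 219 with shp53. Groups that did not overlap in the mixes, in either direction, were found for 33.4% of all genes. In the cocultures this probe set overlapped between the knockdowns. The target of the other hairpin, p53, was not analysed here. Of 8 stem cell genes 3 were below 0 in coculture minus mix (44.7% of all genes), with a median log2 difference of 0.05. Sox2 had signals of 10054 to 13218 in cocultures against 12271 to 15341 in mixes (-0.29), and Zfp42 had 8952 to 12419 in cocultures against 11975 to 13570 in mixes (-0.28). Pou5f1 at 12327 to 14351 in cocultures against 12085 to 13312 in mixes (0.11) and Nanog at 7787 to 9608 in cocultures against 6751 to 8239 in mixes (0.20) lay the other way, and all of these groups overlapped.

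The genes lie on 4 chromosomes of GRCm38.p6, with Fgf5 on chromosome 5 (98254184 to 98277033), Pou3f1 on chromosome 4 (124657646 to 124660655), Sox3 on the X chromosome (60891366 to 60893430), and Otx2 (48656781 to 48667644) and Zic2 (122475384 to 122480328) on chromosome 14. Promoter windows of 300 bases, 250 before to 50 after a transcription start, were taken from a table of RefSeq promoters that was matched for 2 of the 5 genes, with 1 window for Fgf5 and 4 for Otx2. The Fgf5 window, for the gene with the largest average coculture difference, and the single Otx2 window with a match are printed 5′ to 3′ on the gene's strand. Capitals mark matches to 5 motif cores searched on both strands, CTTTGA (TCF/LEF), TAATCC (OTX), ATGCAA (octamer), ACAAAG (SOX) and GGGCGG (GC box).
Fgf5, chr5:98253934-98254233, plus strand: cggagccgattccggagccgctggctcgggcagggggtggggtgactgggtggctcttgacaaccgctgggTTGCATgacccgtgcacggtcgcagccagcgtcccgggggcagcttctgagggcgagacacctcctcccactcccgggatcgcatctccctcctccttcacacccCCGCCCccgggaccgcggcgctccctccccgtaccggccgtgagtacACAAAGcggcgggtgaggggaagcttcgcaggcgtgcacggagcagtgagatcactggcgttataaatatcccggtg
Otx2, chr14:48665060-48665359, minus strand: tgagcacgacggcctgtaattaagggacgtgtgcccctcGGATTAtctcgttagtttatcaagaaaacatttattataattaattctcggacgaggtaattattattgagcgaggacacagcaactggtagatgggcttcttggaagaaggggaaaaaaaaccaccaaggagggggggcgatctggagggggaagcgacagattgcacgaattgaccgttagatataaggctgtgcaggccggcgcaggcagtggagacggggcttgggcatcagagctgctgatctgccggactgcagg
The Fgf5 window held an octamer core 179 bases before the start, a GC box core 74 bases before it and a SOX core 27 bases before it. These cores occur in 10.7%, 35.7% and 18.7% of the 32851 windows of the same length. The Otx2 window held an OTX core 211 bases before the start, a core found in 7.06% of windows. This window was picked from the 4 of Otx2 for its match, and the others held 0 matches, so nothing is read from that share. The TCF/LEF core, in 5257 of all windows, was in none of these 5 windows, and no 2 matches overlapped. The Fgf5 window was 68.3% G and C with 29 CpG sites, the Otx2 window 51.0% with 16, and the median window 52.7% with 7 (quartiles 3 and 20). These matches describe letters in the windows and say nothing of binding.

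Fgf5 had the largest difference of the 5 genes with shTop1 and on average, while with shp53 Zic2 (-0.60) and Pou3f1 (-0.55) were further from 0. Its brighter probe set had signals of 22.6 and 26.1 in the shTop1 coculture against 119 and 97.4 in the shTop1 mix, and of 66.7 and 76.3 in the shp53 coculture against 119 and 80.7 in the shp53 mix. All 4 cocultures lay below all 4 mixes, the shTop1 cocultures furthest, and the highest coculture was 4.38 below the lowest mix. Mean signals were 24.3 ± 2.49 in the shTop1 coculture and 108 ± 15.6 in its mix (SD, n = 2 each), a ratio of 0.224. With shp53 they were 71.5 ± 6.79 in the coculture and 99.9 ± 27.1 in the mix (SD, n = 2 each), a ratio of 0.716. The log2 difference of coculture minus mix was -1.62 ± 0.19 with shTop1 and -0.39 ± 0.19 with shp53 (SE). The shp53 difference rests on single arrays, at -0.15 without shp53 mix replicate 1 and -0.63 without shp53 mix replicate 2. The shTop1 cocultures lie close to the low-signal filter of 22.1, and with a pseudocount of 1 or 64 in place of 16 the shTop1 difference was -2.11 or -0.96. With the signals of both Fgf5 probe sets averaged on the log2 scale it was -0.55, and the average over both hairpins was then -0.45, against -0.63 for Pou3f1.

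Pou3f1, a POU factor first of the epiblast and then of neural and glial cells, was lower in every coculture than in every mix on both of its probe sets. The brighter one had signals of 724 and 569 in the shTop1 coculture against 748 and 953 in the shTop1 mix, and of 565 and 657 in the shp53 coculture against 939 and 865 in the shp53 mix. The gap between the highest coculture and the lowest mix was 23.1. The dimmer probe set had 122 and 152 in the shTop1 coculture against 301 and 299 in the shTop1 mix, and 141 and 178 in the shp53 coculture against 257 and 214 in the shp53 mix. On it the groups were further apart, with a gap of 36.1 and log2 differences of -1.05 with shTop1 and -0.52 with shp53. On the brighter one the differences were -0.39 ± 0.18 with shTop1 and -0.55 ± 0.18 with shp53 (SE), and the first was -0.21 without shTop1 mix replicate 2. So the probe sets agreed in direction in both knockdowns and differed in which knockdown had the larger difference.

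Sox3, a SOXB1 factor related to Sox2, had signals of 147 and 154 in the shTop1 coculture against 225 and 188 in the shTop1 mix, and of 177 and 148 in the shp53 coculture against 184 and 185 in the shp53 mix on its brighter probe set. The 4 cocultures lay below the 4 mixes, by 6.55 at the closest point. The log2 difference was -0.41 ± 0.13 with shTop1 and -0.17 ± 0.13 with shp53 (SE), the shp53 value being -0.29 when replicate 1 of the shp53 coculture was left out and -0.05 when replicate 2 was. The other Sox3 probe set had 46.8 and 68.7 in the shTop1 coculture against 39.2 and 18.6 in the shTop1 mix, and 25.8 and 17.1 in the shp53 coculture against 26.0 and 43.7 in the shp53 mix. There the shTop1 cocultures were above their mixes and the shp53 cocultures below theirs, so the 2 probe sets of Sox3 disagreed with shTop1. The second probe set of Fgf5 was under the filter, with signals of 24.8 and 7.86 in the shTop1 coculture against 4.03 and 7.51 in the shTop1 mix, and of 2.04 and 26.7 in the shp53 coculture against 38.5 and 5.64 in the shp53 mix. With shTop1 both cocultures lay above both mixes (log2 difference 0.52), opposite to the brighter Fgf5 probe set, and with shp53 the groups overlapped. On 5 of the 8 arrays it was below the filter's signal of 22.1.

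**Figure D1:**
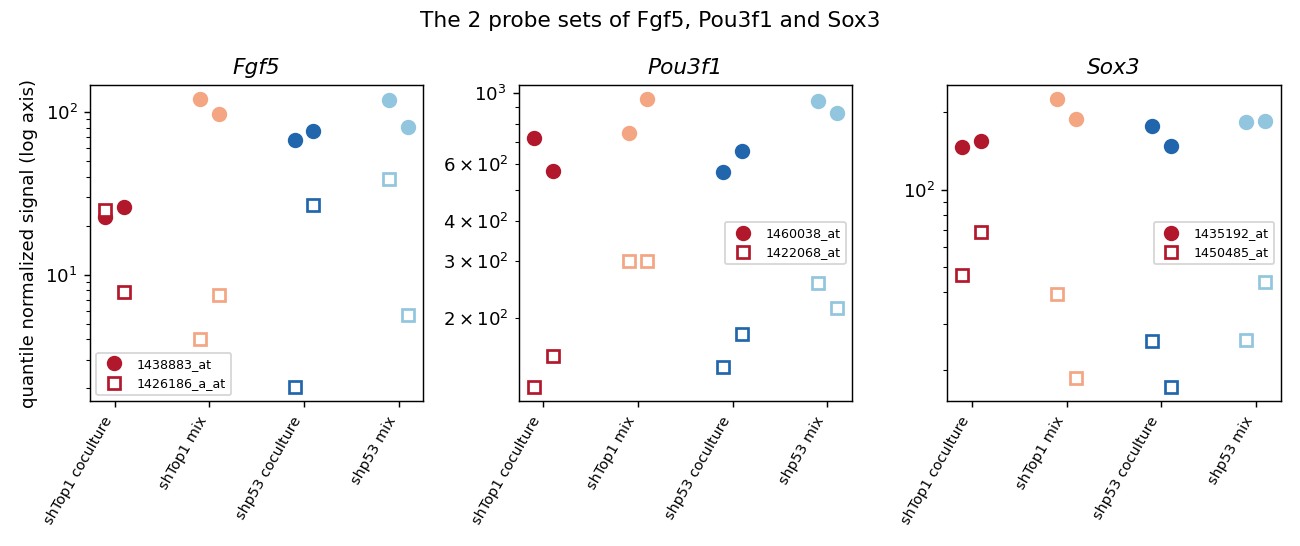
Quantile normalized signal (log axis) of both probe sets of Fgf5, Pou3f1 and Sox3 on the 8 arrays, filled circles for the brighter and open squares for the dimmer probe set, replicate 1 left of replicate 2. Both Pou3f1 probe sets lay lower in all 4 cocultures than in all 4 mixes, whereas the dim Fgf5 and Sox3 probe sets lay higher in the shTop1 coculture than in the shTop1 mix.

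Otx2, a homeobox factor that moves Pou5f1 to new enhancers on leaving the naive state, was the brightest member, with the smallest difference with shTop1 and on average. With shp53 that of Sox3 (-0.17) was smaller, as was its average when probe sets were averaged (-0.07, against -0.23 for Otx2). Its probe set had signals of 1723 and 1466 in the shTop1 coculture against 1858 and 1756 in the shTop1 mix, and of 1496 and 1681 in the shp53 coculture against 2012 and 1848 in the shp53 mix. All cocultures lay below all mixes, by 32.4 at the closest point. The log2 difference was -0.18 ± 0.13 with shTop1 and -0.28 ± 0.13 with shp53 (SE), and the first was -0.30 without shTop1 coculture replicate 1 and -0.07 without shTop1 coculture replicate 2.

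Zic2, a zinc finger factor of epiblast and neural plate, was the member whose groups overlapped. Its probe set had signals of 256 and 180.4 in the shTop1 coculture against 269 and 306 in the shTop1 mix, and of 158 and 218 in the shp53 coculture against 245 and 342 in the shp53 mix. Only shTop1 coculture replicate 1, the array that stood apart, lay above a mix, shp53 mix replicate 1. The log2 difference was -0.39 ± 0.25 with shTop1 and -0.60 ± 0.25 with shp53 (SE). The shTop1 value was -0.62 without shTop1 coculture replicate 1 and -0.15 without shTop1 coculture replicate 2, and the shp53 value was -0.37 without shp53 mix replicate 2.

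**Figure D2:**
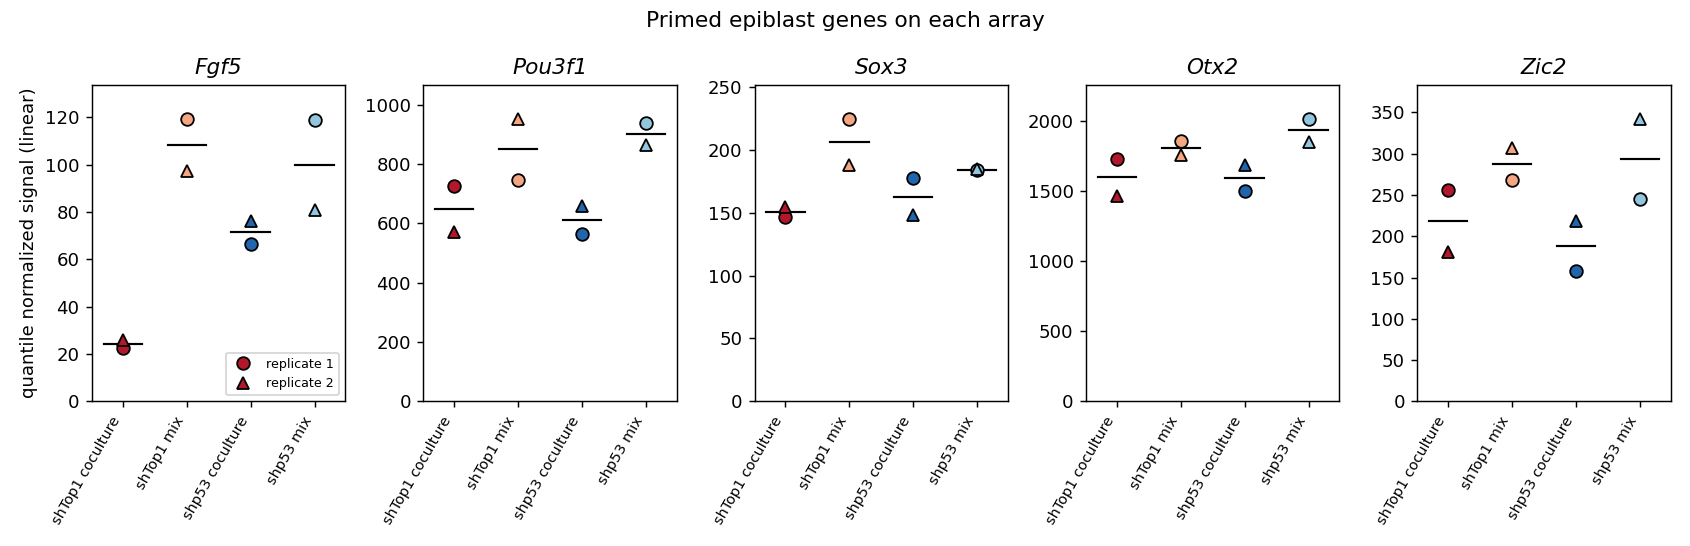
Quantile normalized signal (linear axes from 0) of the probe set that represents each gene on the 8 arrays; circles are replicate 1, triangles replicate 2 and horizontal lines the means of each group. The cocultures lie below the mixes for Fgf5, Pou3f1, Sox3 and Otx2, and for Zic2 1 coculture lies above 1 mix.

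Over both knockdowns, the log2 differences of coculture minus mix were -1.004 for Fgf5, -0.49 for Zic2, -0.47 for Pou3f1, -0.29 for Sox3 and -0.23 for Otx2, with SE of 0.13, 0.17, 0.13, 0.09 and 0.09. All 5 genes passed the filter on low signal, and the median over them was -0.47, where the median over the 14267 genes tested was 0.02. All 5 were below 0, as were 44.7% of all genes tested. In 4 of the 5 all cocultures lay below all mixes, a pattern found in 3.35% of all genes tested, and 0 had all cocultures above all mixes, found in 5.75%. Within shTop1 both cocultures lay below both mixes in 5 of 5 members, against 16.9% of all genes, and within shp53 in 5 of 5, against 17.1%. Since the genes were chosen on this contrast, nothing is read from these counts. As background on the whole array, 0% of all genes passed limma's test with adjustment over all genes, and 1672 genes had an unadjusted p under 0.05 (11.7%). With shTop1 alone and with shp53 alone 0% passed as well, with 1170 (8.2%) and 979 genes (6.86%) at an unadjusted p under 0.05. By group means the order of levels was shTop1 coculture, shp53 coculture, shp53 mix and shTop1 mix for Fgf5 and Sox3, low to high, and shp53 coculture, shTop1 coculture, shTop1 mix and shp53 mix for Pou3f1, Otx2 and Zic2. In this order the 2 coculture groups overlapped for every member except Fgf5, and the 2 mix groups overlapped for every member except Sox3.

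**Figure D3:**
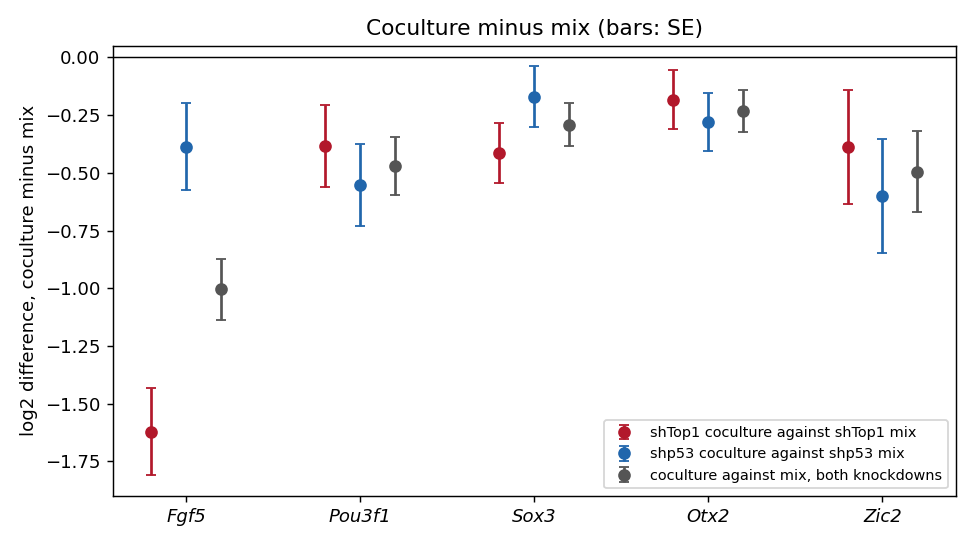
Log2 difference of coculture minus mix for each gene with shTop1, with shp53 and averaged over both, with bars for the SE of the fit over 8 arrays. All 15 points lie below 0, and Fgf5 with shTop1 (-1.62) lies furthest from it.

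Each gene was scaled to SD 1 over the arrays and the 5 profiles were averaged, which gave 0.70 to 0.80 on the mixes and -1.22 to -0.42 on the cocultures. The lowest was shTop1 coculture replicate 2, which also lay at the end of the component of largest variance (-26.1, against -12.5 to 21.1 on the other arrays). That component held the mixes at 5.14 to 21.1 and the cocultures at -26.1 to 2.94, so it too separated the conditions. Among the cocultures its order was not that of the members, as shp53 coculture replicate 2, at -12.5, had the highest average (-0.42). The part of overall array differences in the members' values was not tested. The genes whose profiles over 8 arrays were most like this average were Fblim1 (r = 0.991, rho = 0.786), Ttc13 (0.987, 0.833), Cds2 (0.984, 0.755), Ccnd1 (0.983, 0.881), Slc38a2 (0.977, 0.810), Usp10 (0.9752, 0.762), Gpatch1 (0.9752, 0.810) and Ccdc86 (0.974, 0.786), each given as Pearson's r and Spearman's rho. They were picked for a high r, so no p is given, and r stayed at 0.953 to 0.990 without the 2 arrays furthest from the median. Fblim1, for example, had signals of 1258 to 1439 in cocultures against 1749 to 1774 in mixes. Most like Fgf5 alone were Ptprk (r = 0.983), Fat3 (0.953), Ttc14 (0.945), Zfp280d (0.942) and Sncg (0.940). Without the 2 shTop1 cocultures these were 0.903, 0.622, 0.933, 0.941 and 0.957, so the likeness of Fat3 rests largely on those arrays.

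Whether the hairpin mattered was asked by comparing shTop1 with shp53 samples. The genes were chosen with coculture and mix values of the same 8 arrays in view, so these comparisons are not independent of the choice. In the mixes, where the cells had been apart, the log2 differences of shTop1 minus shp53 ran from -0.09 (Pou3f1 and Otx2) to 0.15 (Sox3) and 0 of the 5 members passed (limma adjusted p = 0.9997 for each). Their 95% intervals, for each gene alone, were -0.34 to 0.58 for Fgf5, -0.53 to 0.34 for Pou3f1, -0.17 to 0.47 for Sox3, -0.40 to 0.22 for Otx2 and -0.62 to 0.59 for Zic2. Of all genes 0% passed, and 577 (4.04%) had an unadjusted p under 0.05. The groups did not overlap for 1 of the 5 members, Sox3, against 33.4% of all genes. In the cocultures Fgf5 was at 22.6 and 26.1 with shTop1 against 66.7 and 76.3 with shp53, a log2 difference of -1.12 ± 0.19 (SE), and it did not pass over all genes (limma adjusted p = 0.556, and 0.365 to 0.9998 over the alternatives). That difference was -0.47 with the probe sets of a gene averaged and -0.62 with a pseudocount of 64. The other 4 members had log2 differences of -0.10 to 0.20 there, with 0 passing, again 0% of all genes passed, and 682 genes (4.78%) had an unadjusted p under 0.05. The groups did not overlap for 1 of the 5, Fgf5, against 27.8% of all genes.

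The coculture effect was then compared between the hairpins. For Fgf5 the effect with shTop1 minus that with shp53 was -1.23 ± 0.27 (SE, 95% interval for this gene alone -1.88 to -0.58), and it did not pass over all genes (limma adjusted p = 0.943, and 0.632 to 0.99998 over the alternatives). With the probe sets of a gene averaged this difference of effects was -0.20, with a pseudocount of 64 it was -0.70 and with a pseudocount of 1 it was -1.65. For Pou3f1, Sox3, Otx2 and Zic2 the differences of effects were 0.17 ± 0.25, -0.24 ± 0.19, 0.10 ± 0.18 and 0.21 ± 0.35 (SE, limma adjusted p = 0.99998 each), and their intervals reached from -0.70 at the lowest to 1.06 at the highest. With the probe sets of a gene averaged Pou3f1 had -0.18 and Sox3 0.46, and the dimmer Pou3f1 probe set alone had -0.53. The signs for these 2 genes thus depended on the probe set. Of all genes 0% passed, and 614 genes (4.3%) had an unadjusted p under 0.05. Over both conditions 0 members and 0% of all genes passed between shTop1 and shp53, with 670 genes (4.7%) at an unadjusted p under 0.05, and Fgf5 at -0.50 ± 0.13 (SE, limma adjusted p = 0.902) was the member furthest from 0.

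**Figure D4:**
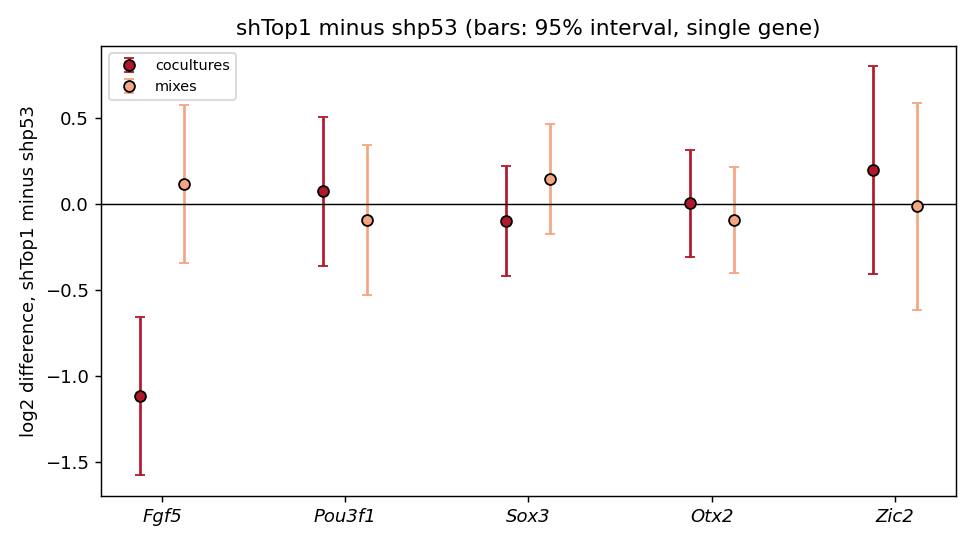
Log2 difference of shTop1 minus shp53 for each gene in the cocultures (left) and in the mixes (right), with bars for the 95% interval of each gene alone. Fgf5 in the cocultures lies at -1.12, and the other 9 intervals contain 0.

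Other genes of the primed state lay mostly lower in coculture. The list was chosen with earlier results of these data known, so its counts are given as a description. Of 14 listed genes 11 passed the filter, 9 were below 0 (44.7% of all genes) and 5 had all cocultures below all mixes (3.35% of all genes), with a median of -0.18. The 5 were Zic5, which neighbours Zic2 (664 to 980.1 in cocultures against 1010.3 to 1231 in mixes, log2 difference -0.47 ± 0.14, SE), the Wnt effector Lef1 (561 to 716 in cocultures against 771 to 953 in mixes, -0.43 ± 0.12, SE), the DNA methyltransferases Dnmt3a (-0.24) and Dnmt3b (-0.18), and the kinase gene Pim2 (-0.19). Fgf8, Cer1 and Lin28b were under the filter. Of 15 naive genes 9 were below 0, with a median of -0.05 and 1 with all cocultures below all mixes, Klf4 (-0.15), set against the same shares of 44.7% and 3.35% of all genes, and Zfp42 stood at -0.28 with overlapping groups. Whether primed and naive genes differ was not tested.

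Close relatives of the members were mixed. Of the SOXB genes Sox1 had all cocultures below all mixes, a pattern found in 3.35% of all genes (3.36 to 81.5 against 90.3 to 121, log2 difference -0.99 ± 0.39, SE). It had -0.27 with shTop1 and -1.72 with shp53. Sox2 was at -0.29 and Sox21 at -0.13, both with overlapping groups. The related Pou3f3 (-0.15), Zic1 (0.01), Zic4 (-0.23) and Crx (0.41) were dim, and Pou3f2, Pou3f4, Otx1 and Sox14 were under the filter. Among the other FGF ligand genes 14 of 21 passed the filter, with 5 below 0 (44.7% of all genes) and a median of 0.08. In 1 of the 14, Fgf17 (-0.22), all cocultures lay below all mixes (3.35% of all genes). Fgf4, the ligand that stem cells make themselves, was at 0.21 ± 0.08 (SE), with overlapping groups of 4708 to 5851 in cocultures against 4523 to 4745 in mixes, and Fgf22 was at 0.80 near the filter.

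Genes of the FGF-ERK, Wnt and Nodal pathways were described from the same contrast. The shares over all genes were again 44.7% below 0 and 3.35% with all cocultures below all mixes. Of 13 FGF-ERK genes 12 were below 0, 4 had all cocultures below all mixes and the median was -0.27. Spry4 and Spred1, feedback inhibitors of receptor tyrosine kinases, had -0.83 ± 0.25 and -0.36 ± 0.09 (SE), their relatives Spry2 and Spred2 had -0.36 and -0.16, and Fgf4 was the gene above 0. Of 7 Wnt genes 6 were below 0, with a median of -0.03, and Ccnd1, which encodes cyclin D1 (-0.30), and Lef1 had all cocultures below all mixes. Taken by hairpin, 6 were below 0 with shTop1 (median -0.20, 44.4% of all genes below 0) and 3 with shp53 (median 0.04, 47.0%). Of 10 Nodal genes 4 were below 0 and 0 had all cocultures below all mixes, with a median of 0.07. The 4 were Nodal (-0.21), Lefty1, a target and inhibitor of Nodal (-0.27), Lefty2 (-0.37) and Smad7 (-0.27). The rest lay above 0, from Tdgf1 at 0.06 to the receptor gene Acvr1b at 0.26. In each of these lists 0 genes passed limma's test over all genes, with or without trended and robust variances.

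**Figure D5:**
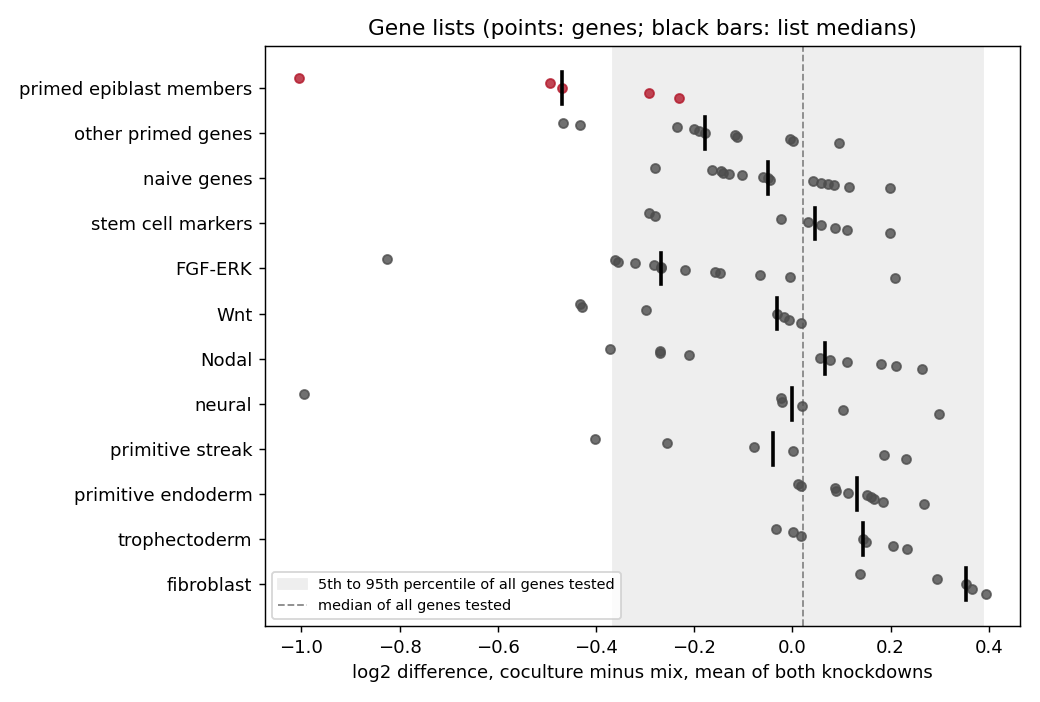
Log2 difference of coculture minus mix, mean of both knockdowns, for each tested gene (points) of 12 lists with list medians (black bars), over the range of the 5th to 95th percentile of all genes (-0.37 to 0.39, grey). The 5 members have a median of -0.47, the other primed genes -0.18, naive genes -0.05 and fibroblast markers 0.35.

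Markers of other cell types were described in the same contrast, and 0 of them passed limma's test over all genes. Of 10 fibroblast markers, a cell type often present as a feeder layer, 5 passed the filter, and Col3a1, Dcn, Lum, Postn and Twist2 were under it. The signal summed over all 10 was 889 to 956 in cocultures and 688 to 771 in mixes. This sum and those of the lists below include named genes under the filter. The 5 that passed were all above 0 on average, where 44.7% of all genes were below 0, and with shp53 1 of them was below 0 (47.0% of all genes). All cocultures lay above all mixes for 2, Col5a1 (log2 difference 0.37) and Thy1 (0.35), a pattern found in 5.75% of all genes. Primitive endoderm markers summed to 42189 to 47273 in cocultures and 40105 to 41707 in mixes. All 10 were above 0 (median 0.13, Foxa2 0.27, Amn 0.16, Gata4 0.01), where 44.7% of all genes were below 0. With shTop1 2 of the 10 were below 0 (44.4% of all genes). In 0 of the 10 all cocultures lay above all mixes (5.75% of all genes). The brightest in the sum were Col4a1 and Lama1, with mean signals of 18375 and 11446 in cocultures. Trophectoderm markers summed to 7907 to 8594 in cocultures and 6930.5 to 7776 in mixes, with 7 of 9 tested, Elf5 and Gata3 under the filter, Krt8 at 0.14 and Krt18 at 0.15. Of the 7, 1 was below 0 on average (44.7% of all genes), with a median of 0.14. With shTop1 4 were below 0 (median -0.07), against 44.4% of all genes, and with shp53 1 was (median 0.21), against 47.0%. Neural markers summed to 1026 to 1176 in cocultures and 1101 to 1216 in mixes, with 7 of 8 named, Neurog2 under the filter and 3 of 6 tested below 0. Of these Sox1 is given above, and Hes5 was at 0.30 on average, with -0.71 with shTop1 and 1.31 with shp53. Primitive streak markers summed to 400.1 to 531 in cocultures and 407 to 532 in mixes, with 8 of 9 named, Evx1 and Gsc under the filter and a median of -0.04. Kdr (-0.40), Msgn1 (-0.26) and Mesp1 (-0.08) were the 3 of 6 tested below 0. Mixl1 was at 0.19 on average (-0.13 with shTop1, 0.51 with shp53) and Tbx6 at 0.23 (0.70 with shTop1, -0.23 with shp53). These named streak genes were dim, with signals from 9.88 (Kdr) to 88.1 (Mesp1), and for each of them cocultures and mixes overlapped. The summed signals of both lists overlapped between cocultures and mixes. Stem cell markers summed to 58609 to 66403 in cocultures and 64574 to 66138 in mixes. The part of these other cell types in the members' differences was not tested.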

How the data were processed

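The authors deposited 1 linear signal intensity per probe set and array, brought by the authors to 1 trimmed mean of about 500.003 on every array, as read from the values. The software was not given in the sources used here. Of 45101 probe sets 34958 had 1 symbol in the platform annotation, 932 had several and 9211 were unnamed here, and symbols were updated through RefSeq gene identifiers. Intensities were quantile normalized, which changed the 5 representing probe sets by factors of 0.941 to 1.15, and taken as log2(value + 16). The probe set of highest mean stood for its gene, which was kept if this mean was at or above the 30th percentile over the array. Group means were fitted over 8 arrays with limma 3.58.1 in R 4.3.3 (lmFit, eBayes, two-sided, Benjamini-Hochberg over 14267 genes, threshold 0.05, 4 residual degrees of freedom). No batch is labelled.

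The members, lists and tests were chosen with earlier results of these data known. The genes named are all members, per list the 2 with the smallest p, and the genes with the highest correlation to the members. Other list genes whose groups did not overlap, Pou5f1, Nanog, Fgf4, Sox21, Zic1, Tdgf1 and the Nodal genes and primitive streak markers below 0 were added after their values were seen. Alternatives were a replicate block, other scalings, filters, pseudocounts and probe set rules, other variances, only the groups compared, and leaving out each array. Promoters and coordinates are RefSeq's for GRCm38.p6.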

Additional observations from a re-analysis of the deposited data

Results flagged for a closer look

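The dimmer Sox3 probe set lay in opposite directions with the 2 hairpins. Its log2 difference of coculture minus mix was 0.74 with shTop1, where both cocultures lay above both mixes, and -0.43 with shp53, where both lay below, a difference of effects of 1.17. A case was counted where, with each hairpin, both cocultures lay beyond both mixes and the directions were opposite. By that criterion it was 1 of 48 probe sets looked at, which were those of the members, of Top1, of the genes named by the rule and of those most like the members. The share of all genes that meet the criterion was not counted, so nothing is read from the 1 of 48. Tested with every probe set by itself, the difference did not pass (limma adjusted p = 0.99998). Signals of this probe set were 17.1 to 68.7 in cocultures and 18.6 to 43.7 in mixes, with 2 of 8 arrays under the filter of 22.1.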

How the results depend on the processing

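Leaving out 1 array, 4 or 5 members had all cocultures below all mixes, with 5 without shTop1 coculture replicate 1 (6.75% of all genes) or without shp53 mix replicate 1 (4.94%), and over the arrays left out the share of all genes was 4.39% to 6.75%, against 3.35% with all arrays. The number was 5 with the deposited scaling alone, where Zic2 joined (3.48% of all genes), 3 with median centring, where Sox3 overlapped (1.66%), and 2 when a gene's probe sets were averaged (3.46%). That last setting weighs dim probe sets like bright ones. It gave Sox3 a shTop1 difference of 0.16, against -0.41 in the setting used, and Fgf5 an average of -0.45. Trended and robust variances in limma gave 31 called genes over both knockdowns, 3 with shTop1 and 1 with shp53, and 0 in the setting used. Of 370 member values in the comparisons of the hairpins under alternatives, 0 were called. The replicate block called 0 genes in each comparison. Replicate 1 minus replicate 2 correlated at -0.007 to 0.051 between groups, so the numbers were not taken to pair the arrays. The dim signal limits Fgf5 and the second probe sets most, and no detection calls were used here.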
